A study of Mus musculus with 11 samples.

Results

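The subject is a set of 35 genes of the cardiac sarcomere and its Z-disc, taken as a list of symbols and matched to the files by gene identifier without its version. The files held 55414 identifiers, and all 35 genes were found and passed the count filter that left 14556 genes for testing. RNA came from the apex of C57BL/6 mouse hearts and was sequenced in bulk. There were 3 F-PRT libraries (FLASH proton radiotherapy, in which the dose is given at an ultra-high dose rate), 4 S-PRT libraries (proton radiotherapy at a standard dose rate) and 4 NR libraries without irradiation. The irradiated hearts received 40 Gy aimed at the apex and were studied 2 weeks later, and all 3 groups share strain and tissue. The age and sex of the mice are not given in the sources used here, nor is it stated whether each library is a different mouse, so every p-value reads library-to-library spread, which may be technical.

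The sarcomere is the contractile unit of the heart muscle cell. Thick filaments of myosin, tied together at the M-band, slide along thin filaments of actin whose access is set by tropomyosin and the calcium-sensing troponin complex, and the giant protein titin spans from the M-band to the Z-disc. The Z-disc anchors the thin filaments, is linked to its neighbours by desmin, and carries adaptor proteins, chaperones and ubiquitin ligases that sense load and replace worn parts.

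Of the 35 genes, 29 were matched to a RefSeq promoter table (build GRCm38.p6). The 250 bases before the start site are printed for 5 of the genes that later passed the test in F-PRT against NR, the called genes with 1 start site in the table. Whether these genes share control was not tested. Nebl, the other called gene in the table, has more than 1 start site and is not printed, but its windows hold M-CAT, CArG and GATA motifs. Capitals mark motifs found by search on both strands.
Tnnc1: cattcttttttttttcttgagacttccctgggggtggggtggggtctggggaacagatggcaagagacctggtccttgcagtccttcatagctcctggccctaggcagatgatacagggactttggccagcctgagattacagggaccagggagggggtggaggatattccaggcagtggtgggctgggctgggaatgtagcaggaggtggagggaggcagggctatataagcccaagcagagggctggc
Myl3: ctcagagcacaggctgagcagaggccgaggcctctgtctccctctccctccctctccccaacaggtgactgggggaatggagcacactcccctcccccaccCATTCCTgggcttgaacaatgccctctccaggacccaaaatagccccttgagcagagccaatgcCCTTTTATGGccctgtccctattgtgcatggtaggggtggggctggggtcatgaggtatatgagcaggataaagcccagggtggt
Trim54: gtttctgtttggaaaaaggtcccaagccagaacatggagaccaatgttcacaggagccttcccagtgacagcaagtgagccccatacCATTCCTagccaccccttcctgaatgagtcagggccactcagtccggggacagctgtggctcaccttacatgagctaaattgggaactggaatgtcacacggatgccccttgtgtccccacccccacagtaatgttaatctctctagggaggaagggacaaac
Des: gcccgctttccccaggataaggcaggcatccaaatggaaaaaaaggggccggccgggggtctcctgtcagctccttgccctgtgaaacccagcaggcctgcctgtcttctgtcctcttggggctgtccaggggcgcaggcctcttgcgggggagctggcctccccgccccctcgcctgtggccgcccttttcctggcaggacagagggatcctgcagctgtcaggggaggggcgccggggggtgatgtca
Smyd1: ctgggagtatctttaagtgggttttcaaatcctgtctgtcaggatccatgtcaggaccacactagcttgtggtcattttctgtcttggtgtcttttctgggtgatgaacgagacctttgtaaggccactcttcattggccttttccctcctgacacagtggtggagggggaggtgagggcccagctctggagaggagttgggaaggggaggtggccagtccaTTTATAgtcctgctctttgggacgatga
These lie at chr14:31208062-31208311 (plus strand) for Tnnc1, chr9:110763428-110763677 (plus strand) for Myl3, chr5:31116362-31116611 (plus strand) for Trim54, chr1:75360042-75360291 (plus strand) for Des and chr6:71262282-71262531 (minus strand) for Smyd1. The Myl3 window holds an M-CAT motif (CATTCCT) starting 149 bases before the start site and a CArG box starting 85 bases before it. The Trim54 window holds an M-CAT motif starting 163 bases before the start site, and the Smyd1 window a TATA box (TATAAA, here on the opposite strand) starting 28 bases before it. None of the searched letters were found in the Tnnc1 and Des windows. Over the matched genes, an M-CAT motif was found in 7 of 29, against 4.51% of 32851 promoters, and a CArG box in 5 of 29, against 1.47%. A MEF2 motif was found in 4 of 29 (2.92% of all promoters), a GATA motif (AGATAA) in 6 (9.99%) and the TATA box in 5 (12.37%). A gene may have several start sites in the table (39 for the 29 genes) and counts once if any window held the motif. The percentages are of single promoters, so genes and percentages are not counted alike. A match is only a match of letters.

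Library totals ranged between 20758170 and 28571465 expected counts in F-PRT, 23655699 and 40136578 in S-PRT, and 27780213 and 37372372 in NR. The heart muscle origin of the RNA was plain from its markers: Myh6, the main adult ventricular myosin heavy chain of the mouse, was at 4780 TPM or more and Mb, myoglobin, at 7382 TPM or more in every library. The skeletal muscle genes Myh1, Myh2 and Myh4 did not exceed 0.01 TPM, and the atrial light chain Myl7 did not exceed 0.86 TPM. Other genes of those marker lists were detected, led by Acta1, skeletal actin (44.9 to 626 TPM), and Nppa, the atrial natriuretic peptide (27.5 to 313 TPM), both also known from stressed ventricle. The libraries also differed by transcript length. Across the 14556 genes, the deviation of a gene's level from its mean over the libraries correlated with transcript length at a Spearman coefficient of -0.556 to -0.162 in F-PRT, -0.257 to 0.267 in S-PRT and 0.338 to 0.418 in NR. F-PRT 4 stood apart with the lowest coefficient over all genes (-0.556) and over the 35 genes (-0.851), and with the lowest share of counts from mitochondrially encoded transcripts, 24.2% against 30.6% to 43.8% in the other 10 libraries. In F-PRT against NR, 7 of the 35 values changed sign without it and 13 others moved by over 1.5 times, and values without it stand beside the results that turn on it.

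Per length, the contractile proteins were the most abundant of the set. In TPM, Myl2 (the regulatory light chain of ventricular myosin) averaged 11591 ± 3087 in F-PRT, 8013 ± 632 in S-PRT and 9301 ± 991 in NR (SD, n = 3, 4 and 4, as for all such means below). Tnnt2, cardiac troponin T, averaged 7812 ± 1265, 5631 ± 381 and 6664 ± 839 TPM in F-PRT, S-PRT and NR. Tpm1, tropomyosin, averaged 7443 ± 2157, 5464 ± 309 and 5754 ± 596 TPM in the same groups. These TPM are not scaled between libraries, so their group means are not read as group differences. In TMM-scaled CPM, Myl2 averaged 4393 in S-PRT and 4284 in NR, the reverse of its TPM order. Tpm1 was reversed too, at 6612 CPM in S-PRT and 5949 CPM in NR. Tnnt2 kept its order, at 5893 CPM in S-PRT and 5947 CPM in NR. In NR, Myl2, Tnnt2 and Tpm1 were followed in TPM by Myl3, the essential light chain, at 5529 ± 814. Actc1, cardiac actin, came next at 4589 ± 1019 TPM. The NR libraries of Myl2 all lay above those of Tnnt2, whereas the neighbours Tnnt2 and Tpm1, Tpm1 and Myl3, Myl3 and Actc1, and Actc1 and Tnni3 overlapped. Titin (Ttn), with a mean deposited length of 62060 bases, was at only 24.4 ± 4.62 TPM in F-PRT, 29.9 ± 5.33 in S-PRT and 29.3 ± 4.51 in NR, and Pdlim3, a PDZ-LIM protein of the Z-disc, was lowest in NR at 3.81 ± 0.355 TPM. Together the 35 genes made up 8.70% ± 0.364 of the counts outside mitochondrially encoded genes in F-PRT, 7.96% ± 0.216 in S-PRT and 7.90% ± 0.153 in NR. As a share of all counts, F-PRT (4.81% to 6.87%) overlapped S-PRT (4.54% to 4.92%) and NR (4.34% to 5.42%). The difference between libraries by transcript length was not removed from these shares.

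**Figure D1:**
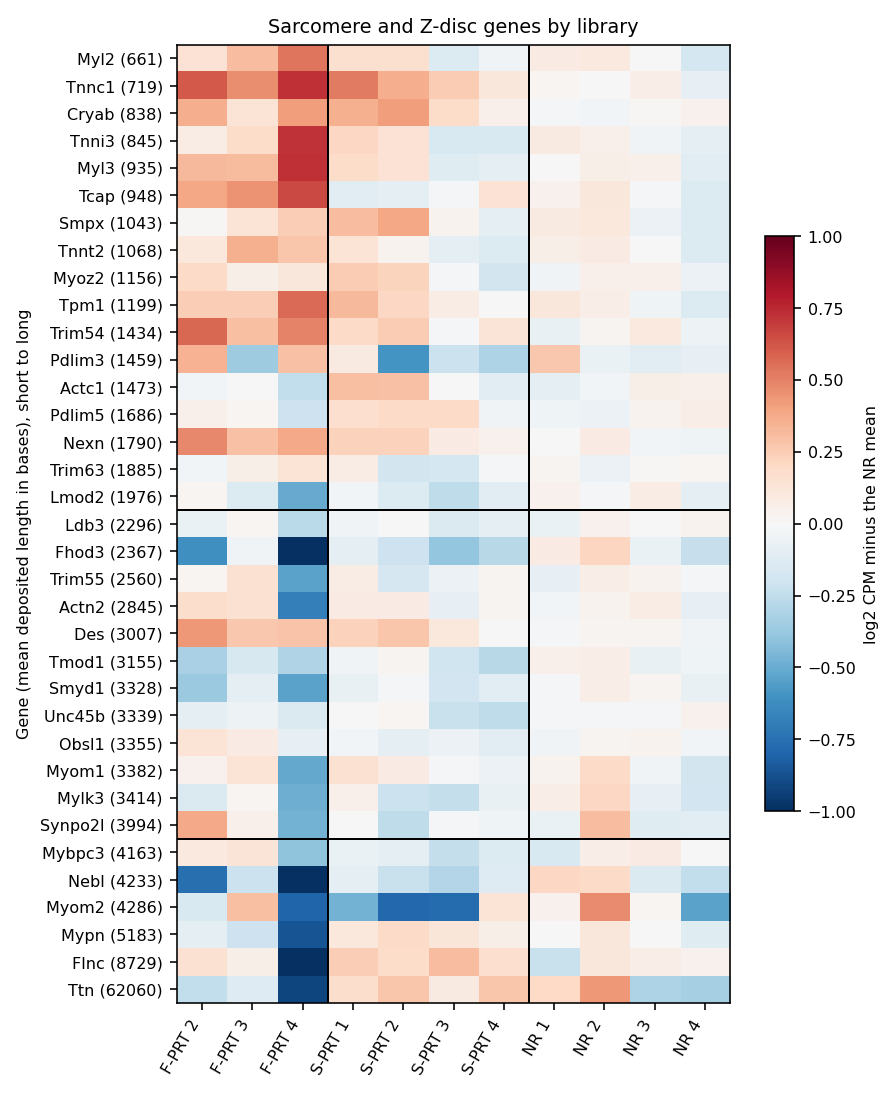
Each row is one of the 35 genes, ordered by mean deposited transcript length, and each column a library; colour gives log2 CPM minus the NR mean of that gene, and lines part the groups and the length classes. In F-PRT the upper, short genes such as Tnnc1 are mostly red, and in F-PRT 4 the lower, long genes such as Ttn are blue.

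In F-PRT against NR, 8 of the 35 genes changed (22.9%), 6 higher and 2 lower. Over all genes tested, 19.5% were called (10.8% higher, 8.67% lower), so the share among the sarcomere genes was near that of the transcriptome. The genes that rose were Tnnc1, Tcap, Myl3, Trim54, Nexn and Des, and those that fell were Nebl and Smyd1. A call is a Benjamini-Hochberg adjusted p under 0.05 over the 14556 genes in edgeR's quasi-likelihood test, and fold changes are log2 with their standard error. In bulk tissue, fewer heart muscle cells and less RNA per cell cannot be told apart. The median log2 fold change of the 35 genes was -0.04, beside 0.03 for all genes, and it was 0.09 without F-PRT 4. All F-PRT libraries lay above all NR libraries for 11 of the 35 genes (17.5% of all genes tested) and below them for 3 (13.9%). Values were positive for 17 of the 35 (52.8% of all genes), and 15 had an unadjusted p under 0.05 (36.1%).

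The thin filament gave the largest rise. Tnnc1 (ENSMUSG00000091898.9), cardiac troponin C, which binds the calcium that starts contraction, had 2345, 2116 and 2546 CPM in F-PRT replicates 2 to 4, 2198, 1969, 1825 and 1653 CPM in the 4 S-PRT libraries and 1553, 1524, 1602 and 1449 CPM in the 4 NR libraries, each in the order of their numbers. All F-PRT and all S-PRT libraries exceeded all NR libraries, and the irradiated groups overlapped. Its log2 fold change in F-PRT against NR was 0.61 ± 0.12 (adjusted p = 0.00943). The partners in the troponin complex did not pass: Tnni3, troponin I, which holds contraction in check, was 0.36 ± 0.16 (adjusted p = 0.134) and 0.13 without F-PRT 4, and Tnnt2, which fastens the complex to tropomyosin, was 0.25 ± 0.13 (adjusted p = 0.18). Tpm1, the tropomyosin on which troponin sits, was 0.36 ± 0.14 (adjusted p = 0.0838), with 7046, 7027 and 8792 CPM in F-PRT and 6424, 6205, 5766 and 5401 CPM in NR. The lowest F-PRT library of Tpm1 and of Tnnt2 was above the highest NR library, while Tnni3 overlapped. Actc1, the actin of the filament itself, was -0.09 ± 0.14 (adjusted p = 0.678; -0.02 without F-PRT 4).

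Of 4 proteins that cap, lengthen, anchor or organise the thin filament, Nebl fell and the other 3 did not pass. Nebl (ENSMUSG00000053702.17), nebulette, a nebulin relative that ties thin filaments to the Z-disc, had 118, 171 and 97.6 CPM in F-PRT, 185, 169.6, 161 and 181 CPM in S-PRT and 228, 226, 179 and 167 CPM in NR. F-PRT replicates 2 and 4 lay below every other library, but F-PRT 3 fell within the NR range. The fold change was -0.64 ± 0.17 (adjusted p = 0.0248), and -0.47 without F-PRT 4, where it did not pass (adjusted p = 0.0875). Fhod3, a formin needed for thin filament assembly, had 164, 243 and 119 CPM in F-PRT and 265, 290.3, 239 and 213 CPM in NR. With the groups overlapping, its value of -0.52 ± 0.19 did not pass (adjusted p = 0.073), and it was -0.31 without F-PRT 4. Tmod1, which caps the pointed end, was -0.26 ± 0.09 (adjusted p = 0.0685), and Lmod2, which lengthens the filament there, was -0.19 ± 0.12 (adjusted p = 0.258; -0.06 without F-PRT 4). Over the 9 thin filament genes, 1 rose and 1 fell.

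Of the 7 thick filament and M-band genes, only Myl3 passed. Myl3 (ENSMUSG00000059741.14) had 5171, 5154 and 6855 CPM in F-PRT, 4697, 4578, 3812 and 3884 CPM in S-PRT and 4153, 4317, 4280.2 and 3817 CPM in NR. Every F-PRT library was above every S-PRT and NR library, and F-PRT 4 was highest by far. The fold change was 0.47 ± 0.14 (adjusted p = 0.0359), and 0.32 without F-PRT 4, where it did not pass (adjusted p = 0.116). Myl2, the other ventricular light chain, had 4723, 5302 and 6176 CPM in F-PRT, 4762, 4776, 3876 and 4159 CPM in S-PRT and 4518, 4568, 4271 and 3778 CPM in NR. F-PRT again lay above NR, with a value of 0.33 ± 0.14 that did not pass (adjusted p = 0.0997). Mybpc3, cardiac myosin-binding protein C, was -0.04 ± 0.14, and the M-band crosslinkers Myom1 and Myom2 were -0.09 ± 0.15 and -0.19 ± 0.29. The remaining pair, Obsl1, an obscurin relative, and Mylk3, the kinase of the cardiac regulatory light chain, were 0.05 ± 0.07 and -0.20 ± 0.14. Among these 5 genes the lowest adjusted p was 0.312, and F-PRT and NR libraries overlapped in each. Without F-PRT 4, Mybpc3, Myom1 and Myom2 turned positive (0.11, 0.09 and 0.05), while Obsl1 was 0.11 and Mylk3 -0.07.

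Titin itself did not pass. Ttn had 1679.8, 1821 and 1052 CPM in F-PRT, 2243, 2403, 2119.6 and 2414 CPM in S-PRT and 2287, 2689, 1606 and 1578 CPM in NR. NR replicates 1 and 2 were higher than NR replicates 3 and 4, so that the F-PRT range overlapped NR but lay wholly below S-PRT. The value was -0.43 ± 0.21 (adjusted p = 0.169), and -0.22 without F-PRT 4, its lowest library.

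Of the 11 Z-disc genes, Tcap and Nexn rose and none fell. Tcap (ENSMUSG00000007877.3), telethonin, which clamps the ends of titin molecules together at the Z-disc, had 1851, 1934 and 2236 CPM in F-PRT, 1319, 1323, 1399 and 1567 CPM in S-PRT and 1458, 1536, 1402 and 1287 CPM in NR. Here F-PRT stood above both other groups, and S-PRT and NR overlapped. The fold change was 0.50 ± 0.11 (adjusted p = 0.0138). Nexn (ENSMUSG00000039103.13), nexilin, an actin-binding protein, had 617, 543 and 575 CPM in F-PRT, 521, 521, 468 and 457 CPM in S-PRT and 441, 468, 436 and 429 CPM in NR. F-PRT was above both groups, with a fold change of 0.38 ± 0.09 (adjusted p = 0.0155). Part of the reads of Nexn were shared with other genes in the deposited counts, which were whole in only 2 of 11 libraries. The lowest Z-disc value was that of Mypn, myopalladin, which binds actinin and nebulette, at -0.35 ± 0.15 (adjusted p = 0.103), which was -0.15 without F-PRT 4. Actn2, the cardiac actinin that crosslinks thin filaments, was -0.07 ± 0.17 and Flnc, filamin C, was -0.18 ± 0.21, and both turned positive without F-PRT 4 (0.16 and 0.10). For both, F-PRT 4 was the lowest of the 11 libraries, at 939 CPM for Actn2 and 122 CPM for Flnc. The PDZ-LIM proteins Ldb3, Pdlim3 and Pdlim5 were -0.10 ± 0.09, 0.14 ± 0.19 and -0.04 ± 0.10 (-0.03, 0.05 and 0.03 without F-PRT 4). Values of Myoz2, a calsarcin, Smpx, a small muscle protein, and Synpo2l, an actin-binding protein, were 0.12 ± 0.11, 0.13 ± 0.12 and 0.02 ± 0.17. Without F-PRT 4 these were 0.13, 0.07 and 0.21.

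Desmin (Des, ENSMUSG00000026208.10), the intermediate filament that links Z-discs, had 2058, 1835 and 1859.7 CPM in F-PRT, 1785, 1843, 1638 and 1516 CPM in S-PRT and 1508, 1549, 1548 and 1486 CPM in NR. F-PRT lay above NR and overlapped S-PRT. The fold change was 0.33 ± 0.10 (adjusted p = 0.0395), and 0.35 without F-PRT 4, where it did not pass (adjusted p = 0.0538). Desmin is made in smooth muscle too. A joint list of 10 smooth muscle and pericyte markers summed to 490.8 to 682.1 CPM in F-PRT, 567.1 to 648.9 CPM in S-PRT and 664.1 to 745.9 CPM in NR. The F-PRT and NR sums overlapped, and their part in the level of Des was not tested. Cryab, the small heat shock protein that guards desmin, had 1056, 901 and 1095 CPM in F-PRT, 1049, 1094, 932 and 850.0 CPM in S-PRT and 808, 805, 824 and 842 CPM in NR. Both irradiated groups lay above NR, at 0.31 ± 0.11 for F-PRT (adjusted p = 0.0634), short of the threshold. Its counts were whole in only 1 of 11 libraries.

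Among the muscle ubiquitin ligases, which tag sarcomere proteins for breakdown or steady them, Trim54 (MuRF3) rose, and Trim63 (MuRF1) and Trim55 (MuRF2) did not pass. Trim54 (ENSMUSG00000062077.15) had 288, 238 and 272 CPM in F-PRT, 221, 231, 192 and 212 CPM in S-PRT and 184, 198, 207 and 187 CPM in NR. F-PRT was above both groups, with a fold change of 0.46 ± 0.09 (adjusted p = 0.0106). Its counts were whole in 0 of 11 libraries, so some of its reads were shared with another gene. How large that part was, and so how uncertain its level is, was not measured. Trim63 was 0.06 ± 0.09 and Trim55 -0.10 ± 0.13 (0.02 and 0.09 without F-PRT 4). Smyd1 (ENSMUSG00000055027.18), a methyltransferase needed for myofibril assembly, had 291, 353 and 259.6 CPM in F-PRT, 357, 372, 329 and 348 CPM in S-PRT and 372, 393, 383 and 358 CPM in NR. F-PRT was below NR and overlapped S-PRT, with a fold change of -0.32 ± 0.10 (adjusted p = 0.0479). Without F-PRT 4 the fold change of Smyd1 was -0.23 and did not pass (adjusted p = 0.15). Unc45b, the myosin chaperone that acts with it, was -0.10 ± 0.09 (adjusted p = 0.439). The counts of Unc45b and Tmod1 were also whole in 0 of 11 libraries and those of Fhod3 in 3, which leaves their levels uncertain to a degree not measured.

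**Figure D2:**
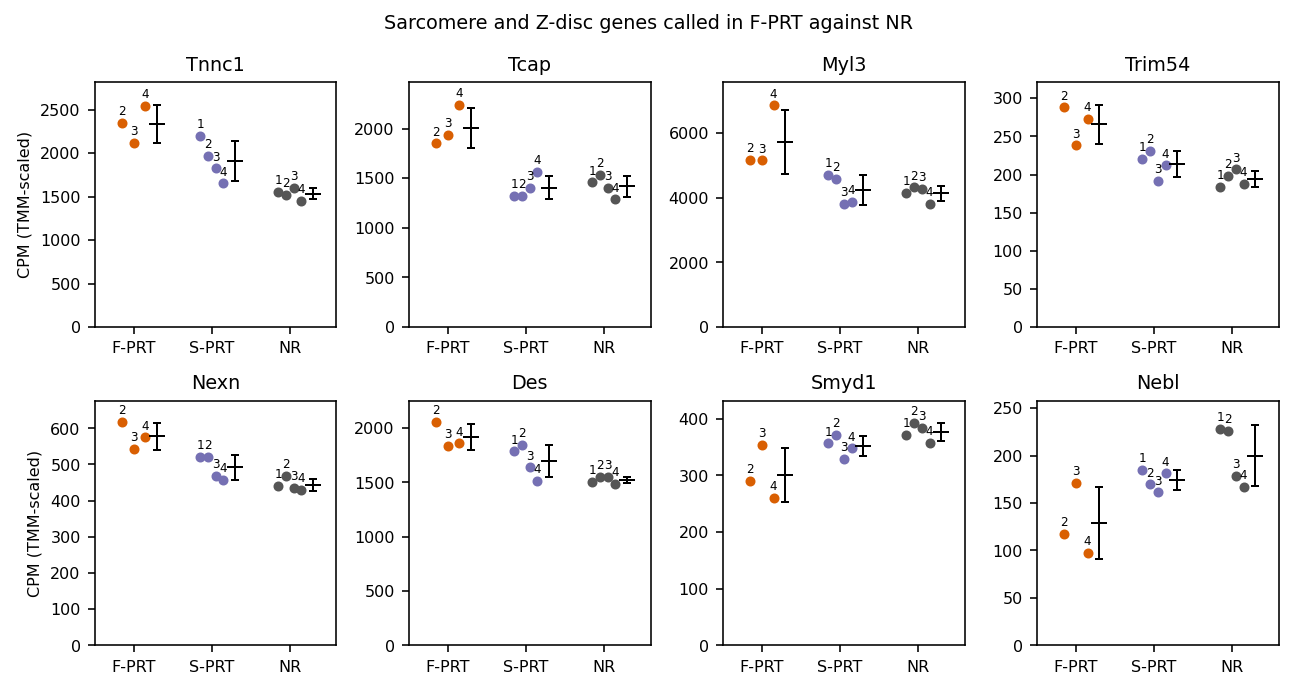
CPM (TMM-scaled) of the 8 genes called in F-PRT against NR, with 1 point per library labelled by replicate number and the mean ± SD beside each group. F-PRT lies wholly above NR for Tnnc1, Tcap, Myl3, Trim54, Nexn and Des and wholly below it for Smyd1, while Nebl overlaps.

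These calls did not depend on single libraries to the same degree. Leaving out each of the 11 libraries in turn kept Tnnc1, Tcap and Trim54 in 11 of 11 fits, and Nexn in 10 (lost without F-PRT 2). Nebl was lost in 4 of 11 fits (without NR 1, NR 2, F-PRT 2 or F-PRT 4) and Myl3 in 6 (without NR 1 to 4, S-PRT 3 or F-PRT 4). Des was lost in 7 (without NR 1 to 4, S-PRT 3, F-PRT 2 or F-PRT 4) and Smyd1 in 9 (all but S-PRT 3 and F-PRT 3). Without F-PRT 4, 4 genes were called, all higher (Tnnc1, Tcap, Nexn and Trim54), of 9.34% of all genes tested. Without F-PRT 3, all 8 kept their calls and Cryab and Fhod3 were called as well, 10 in all. The share of all genes in that fit is not set beside this count, so it is not read as a result about the set. With replicate number as a block, the same 4 as without F-PRT 4 were called, against 10.3% of all genes tested.

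In S-PRT against NR, 0 of the 35 genes passed edgeR's test, and 1.29% of all genes tested did. Values were positive for 18 of the 35 (51.3% of all genes), with a median of 0.02. At an unadjusted p under 0.05 there were 2 (18.3% of all genes), Cryab and Tnnc1. DESeq2's test, which called more of all genes than edgeR's, called 1, Tnnc1. By edgeR the lowest adjusted p was 0.153 and standard errors ran between 0.07 and 0.27. The highest values were those of Tnnc1 (0.32 ± 0.11), Cryab (0.26 ± 0.10) and Flnc (0.22 ± 0.19), the 3 genes whose S-PRT libraries all lay above NR (7.34% of all genes tested). Flnc, a large crosslinker of actin, had 289, 276, 301 and 273 CPM in S-PRT and 208, 264, 255 and 251 CPM in NR, with NR 1 lowest. The lowest were Myom2 (-0.46 ± 0.27), Fhod3 (-0.25 ± 0.18) and Pdlim3 (-0.24 ± 0.18). Myom2, the M-band protein of fast-contracting muscle, varied most: it had 648, 522, 528 and 992 CPM in S-PRT and 926, 1251, 913 and 621 CPM in NR, with S-PRT 4 near 2 of the NR libraries and NR 4 near S-PRT 1. Of the 35 genes, 0 had all S-PRT libraries below NR (6.71% of all genes tested). With replicate number as a block, 0 of the 35 genes and 0.412% of all genes passed.

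Set against each other, F-PRT and S-PRT differed in 0 of the 35 genes by edgeR's test, as in 0 of all genes tested (0%). Values were positive for 19 of the 35 (50.4% of all genes), with a median of 0.04. At an unadjusted p under 0.05 there were 9 (15.9% of all genes). DESeq2's test, which called more of all genes than edgeR's, called 2, Myl3 and Tcap. By edgeR the highest values were Tcap (0.52 ± 0.11, adjusted p = 0.176), Myl3 (0.43 ± 0.14, adjusted p = 0.203) and Pdlim3 (0.38 ± 0.20, adjusted p = 0.361). The lowest were Ttn (-0.60 ± 0.21, adjusted p = 0.235), Mypn (-0.47 ± 0.15, adjusted p = 0.192) and Nebl (-0.44 ± 0.17, adjusted p = 0.257). Without F-PRT 4 these 3 were -0.39, -0.26 and -0.27, and Myl3 was 0.28. Over the 35 genes, 7 values changed sign without that library and 17 others moved by over 1.5 times. Tcap, Myl3, Nexn and Trim54 had all F-PRT libraries above all S-PRT libraries (4 of 35, 5.45% of all genes), and Ttn, Mypn and Flnc all below (3 of 35, 5.17%). Mypn, for one, had 93.2, 86.0 and 54.4 CPM in F-PRT and 106, 113, 107 and 103 CPM in S-PRT. The comparisons of either mode with NR share the NR libraries. A gene that passed for F-PRT and not for S-PRT is therefore not shown to differ between them.

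Short and long transcripts of the set moved apart in F-PRT. Of the 35 genes, 17 had a mean deposited length under 2000 bases, 12 lay between, and 6 (Mybpc3, Nebl, Myom2, Mypn, Flnc and Ttn) had 4000 bases or more. In F-PRT against NR the short genes had a median log2 fold change of 0.31, with 14 of 17 positive and 5 higher, and the long ones a median of -0.27, with 0 of 6 positive and 1 lower. The 12 between had a median of -0.10, with 1 higher and 1 lower. All genes tested showed the same order, with medians of 0.28 for 5449 short, -0.03 for 5963 middle and -0.29 for 3144 long genes, of which 23.5% of the short rose and 24.9% of the long fell. Across the 35 genes the Spearman coefficient of fold change and length was -0.769 (-0.754 without Ttn), and across all 14556 it was -0.552. The genes share their libraries, so this describes the libraries and carries no p. In S-PRT against NR the coefficient was -0.338 over the 35 and -0.383 over all genes, with medians of 0.08 for the short and -0.01 for the long sarcomere genes. For F-PRT against S-PRT it was -0.624 and -0.448, with medians of 0.23 and -0.42.

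**Figure D3:**
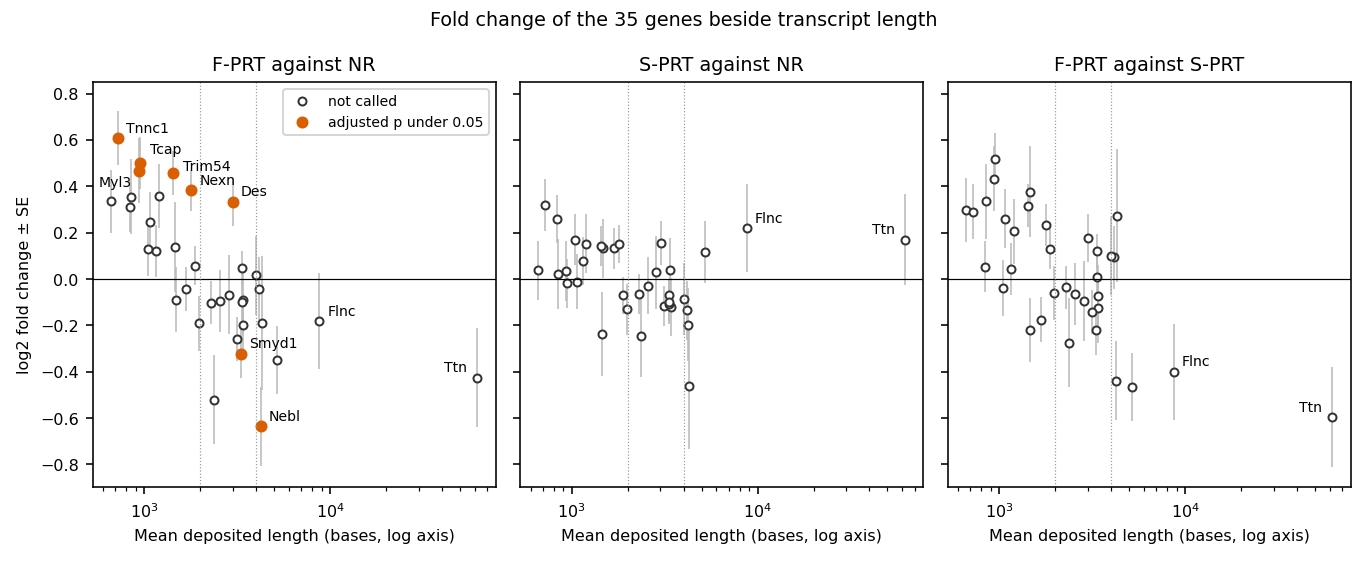
Log2 fold change ± SE of each gene (y axis) against its mean deposited length in bases (log axis) in the 3 comparisons; dotted lines stand at 2000 and 4000 bases, and filled points were called. Only the F-PRT against NR panel has filled points, the 6 higher ones at the short end up to Des and the 2 lower ones, Smyd1 and Nebl, further right.

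The spread by length differed between libraries of 1 group. The mean deviation (log2) of the 6 long genes minus that of the 17 short ones was -0.20, 0.02 and -0.95 in F-PRT replicates 2 to 4. It was -0.03, -0.003, 0.08 and 0.30 in the 4 S-PRT libraries, and 0.17, 0.40, 0.14 and 0.06 in NR replicates 1 to 4. F-PRT 4 was thus far below the rest, while F-PRT 3 lay among the S-PRT libraries. Without F-PRT 4, the median of the long genes in F-PRT against NR was -0.05 and that of the short genes 0.23, beside -0.21 and 0.19 for all long and all short genes.

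When the trend of level on length was removed from each library, 1 of the 35 genes was called in F-PRT against NR, against 3.65% of all genes tested. That gene was Des, at 0.42 (adjusted p = 0.035, between 0.0043 and 0.43 over all alternatives). Tnnc1 was then 0.22, Trim54 0.26, Nexn 0.26, Tcap 0.17, Myl3 0.12, Smyd1 -0.20 and Nebl -0.43, each in the same direction and none called. Of the other 27 genes, 14 changed sign, among them Ttn (0.15), Myl2 (-0.07) and Tnni3 (-0.02). With the replicate block as well, 0 of the 35 genes were called in edgeR, against 39 of all genes tested. Des was then 0.44 (adjusted p = 0.079).

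**Figure D4:**
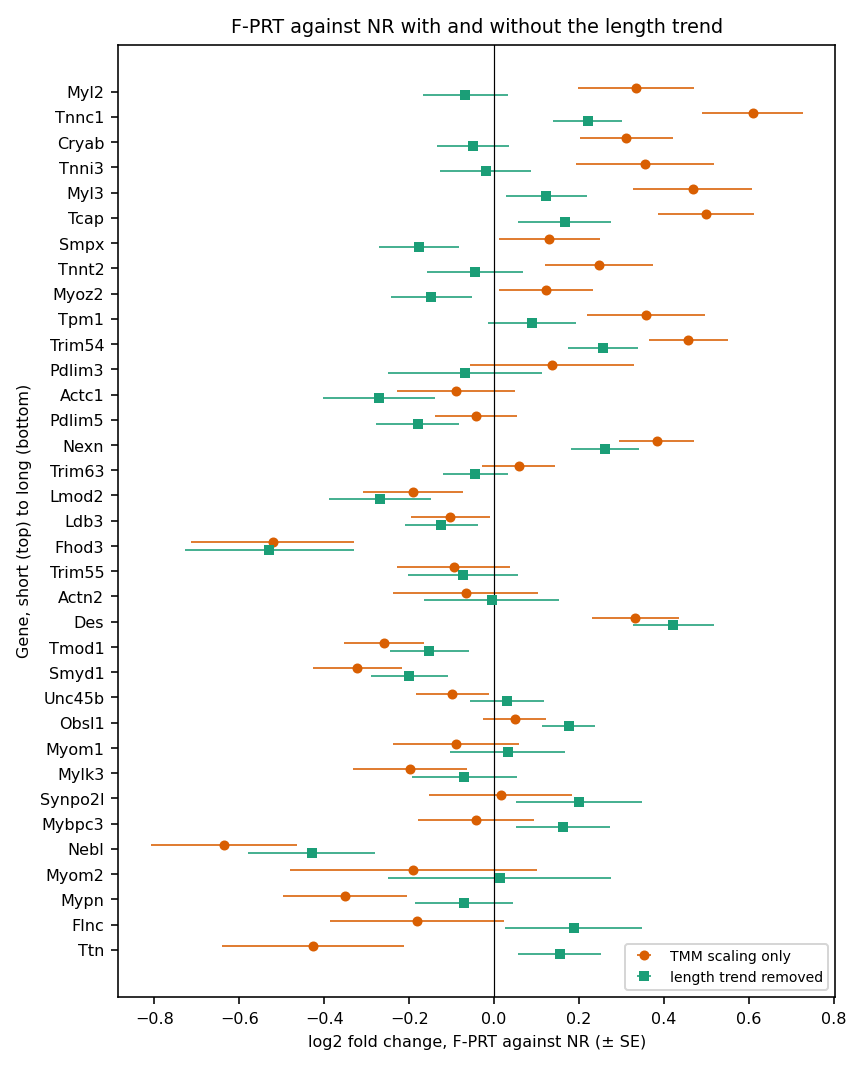
Log2 fold change ± SE of the 35 genes in F-PRT against NR, ordered from short (top) to long (bottom), with TMM scaling only (circles) and with the length trend removed per library (squares). Removing the trend moves short genes such as Tnnc1 (0.61, then 0.22) to the left and long ones such as Ttn (-0.43, then 0.15) to the right, while Des (0.33, then 0.42) stays high.

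The deposited gene length is an average over isoforms weighted by their estimated share, so it moves when the estimated isoform mix moves. It could be tested for 33 of the 35 genes, Tcap and Lmod2 having a constant length. In F-PRT against NR, 1 gene had a shorter weighted length, Myom2, beside 3.05% of 12231 genes called in either direction (1.6% shorter, 1.45% longer) by limma with Benjamini-Hochberg adjustment. At an unadjusted p under 0.05 there were 10 of 33 (19.6% of all). Myom2 had 3846, 4126 and 3480.0 bases in F-PRT, 4245, 4252, 4376 and 4625 bases in S-PRT and 4545, 4641, 4518 and 4495 bases in NR. All F-PRT libraries were below all others, at a log2 difference from NR of -0.26 ± 0.05 (adjusted p = 0.0437). The call was lost in 11 of 14 alternative settings, among them without F-PRT 2, without F-PRT 4, without any single NR library, without S-PRT 1, 2 or 3 and with the replicate block. Without F-PRT 3, 6 genes were called, and without F-PRT 4, Myom1 was called in place of Myom2. The shares of all genes in these fits are not set beside these calls. The calls are therefore not read as results about the set. Ttn, whose isoforms set how stiff the filament is, had 58255, 60268 and 54243 bases in F-PRT, 63994, 63589.9, 62112 and 63606 bases in S-PRT and 65016, 65936, 62113 and 63528 bases in NR. Its F-PRT libraries were the lowest 3 of 11, but it did not pass (adjusted p = 0.0504). The F-PRT libraries of Myom1, Fhod3 and Ldb3 also lay below all NR libraries and those of Pdlim5 above them, with adjusted p of 0.0691, 0.0629, 0.0759 and 0.0737.

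Myom1 had 2694, 3062 and 1629 bases in F-PRT, 3304, 3089, 3543 and 3829.9 bases in S-PRT and 4181, 4093, 3996 and 3781 bases in NR. F-PRT 4 was the lowest of all libraries for Ttn, Myom2, Myom1, Fhod3 and Ldb3, and it is also the library in which levels fell most steeply with transcript length. The part of that trend in these weighted lengths was not tested. In S-PRT against NR, 0 of 33 genes and 0 of 12231 passed in limma, with 1 of 33 and 6.06% of all at an unadjusted p under 0.05. The smallest p there were those of Pdlim3, Ldb3 and Myom1, with adjusted p of 0.666, 0.852 and 0.913. In F-PRT against S-PRT, 0 of 33 passed in limma (0.0245% of all), with 8 of 33 at an unadjusted p under 0.05 (12.8% of all), led by Ttn (0.177), Myom2 (0.193) and Synpo2l (0.217).

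**Figure D5:**
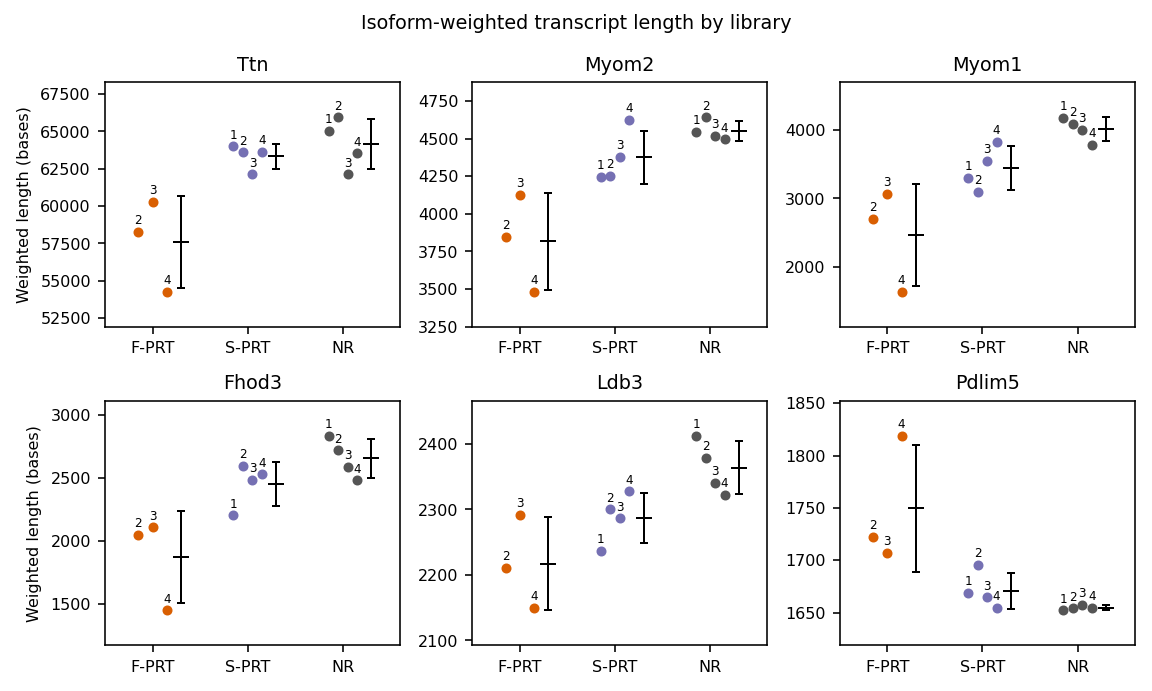
Isoform-weighted length in bases of the 6 genes with the smallest p in F-PRT against NR, with 1 point per library labelled by replicate number and the mean ± SD beside each group; the y axes do not start at 0. F-PRT libraries lie lowest for Ttn and Myom2, with F-PRT 4 at 54243 and 3480 bases, and highest for Pdlim5.

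Other genes of the pathway were read from 3 further lists. Their calls come from the main fit only. They are not given with a library left out or with the length trend removed, settings that lost calls among the main sarcomere genes. Of 38 tested genes for other sarcomere, Z-disc and chaperone proteins, 6 rose and 3 fell in F-PRT against NR, with a median of 0.08 beside 0.03 for all genes. Over all genes tested, 10.8% rose and 8.67% fell, which is the share to set beside each of these lists. The smallest p belonged to Klhl40, which steadies thin filament proteins (log2 fold change 0.40 ± 0.09, adjusted p = 0.013), and Hspb8, a small heat shock protein of the chaperone-assisted autophagy complex (log2 fold change 0.49 ± 0.11, adjusted p = 0.013). Ankrd1, a load-responsive ankyrin repeat protein that binds titin, rose most, with 2028 ± 1360.0 CPM in F-PRT and 888 ± 150.0 CPM in NR (log2 fold change 1.19 ± 0.34, adjusted p = 0.029). Vcl, vinculin, which joins actin to the membrane at costameres, fell (log2 fold change -0.66 ± 0.16, adjusted p = 0.017), as did Cap2, an actin-binding protein (log2 fold change -0.35 ± 0.10, adjusted p = 0.035). Pdlim7, a PDZ-LIM protein, rose too (log2 fold change 0.36 ± 0.11, adjusted p = 0.033). Myh6, the main myosin heavy chain, averaged 20880.0 ± 5080.0 CPM in F-PRT and 21940.0 ± 1920.0 CPM in NR and did not pass (log2 fold change -0.07 ± 0.18, adjusted p = 0.805). Myh7, the slow heavy chain, did not either (log2 fold change 1.28 ± 0.59, adjusted p = 0.137).

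Of 15 tested fetal and other muscle isoforms, 2 rose and 0 fell: Myl4, the atrial essential light chain, at 1.47 ± 0.124 CPM in F-PRT and 0.73 ± 0.167 CPM in NR (log2 fold change 1.01 ± 0.25, adjusted p = 0.019), and Myl6, a light chain of non-muscle and smooth muscle cells, at 128 ± 35.7 CPM in F-PRT and 70.1 ± 6.44 CPM in NR (log2 fold change 0.87 ± 0.17, adjusted p = 0.01). The 9 atrial markers, Myl4 among them, summed to 135.8 to 232.6 CPM in F-PRT, 55.92 to 214.8 CPM in S-PRT and 81.76 to 120.1 CPM in NR, with F-PRT above NR. Of these 9, 5 passed the count filter. The list was led by Nppa (27.5 to 313 TPM), while Myl7 did not exceed 0.86, Sln 0.11, Mybphl 0.06 and Bmp10 0.01 TPM. The part of this sum in the level of Myl4 was not tested. Of 20 transcription and splicing factors of sarcomere genes, 1 rose and 4 fell. Hand2, a heart transcription factor, rose in F-PRT (log2 fold change 0.40 ± 0.10, adjusted p = 0.017), and it also passed in S-PRT against NR (log2 fold change 0.41 ± 0.09, adjusted p = 0.048). Mef2d, a member of the MEF2 family that drives muscle genes, fell in F-PRT (log2 fold change -0.50 ± 0.08, adjusted p = 0.00456) and in S-PRT (log2 fold change -0.32 ± 0.07, adjusted p = 0.044). Mef2c (log2 fold change -0.35 ± 0.09, adjusted p = 0.018), Myocd (log2 fold change -0.67 ± 0.21, adjusted p = 0.039), the coactivator of SRF, and Mef2a (log2 fold change -0.45 ± 0.14, adjusted p = 0.04) fell in F-PRT against NR. These 4 factors have long transcripts, with mean deposited lengths of 4309 bases for Mef2d, 4633 for Mef2c, 4565 for Myocd and 5224 for Mef2a. The other 2 lists had 0 calls in S-PRT against NR, and all 3 had 0 in F-PRT against S-PRT by edgeR.

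Markers of the cell types in the tissue were summed beside these genes. Calls among these markers also come from the main fit only. The 12 markers of heart muscle cells summed to 41880 to 54170 CPM in F-PRT, 44720 to 53740 CPM in S-PRT and 48630 to 56960 CPM in NR, and 2 of them, the long genes Ryr2 and Corin, fell in F-PRT against NR. The 9 fibroblast markers summed to 550.4 to 1283 CPM in F-PRT, 1197 to 1489 CPM in S-PRT and 903 to 1875 CPM in NR, with 0 higher and 2 lower in F-PRT against NR. The 10 endothelial markers summed to 546 to 1160 CPM in F-PRT, 522.6 to 638.6 CPM in S-PRT and 722.6 to 975.4 CPM in NR, with 1 higher and 2 lower in F-PRT against NR. The 10 macrophage markers summed to 187 to 349.2 CPM in F-PRT, 226.2 to 449 CPM in S-PRT and 137.4 to 230.5 CPM in NR, with 4 higher and 1 lower in F-PRT against NR. Over all genes tested, 10.8% rose and 8.67% fell in F-PRT against NR. In S-PRT against NR, 2 endothelial markers were lower, and 2 macrophage markers were higher and 1 lower, where 0.872% of all genes rose and 0.419% fell. No marker of these 4 lists was at 0 in all libraries. The part of these shifts in the levels of the sarcomere genes was not tested.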

How the data were processed

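Bulk RNA-seq libraries (3 F-PRT, 4 S-PRT, 4 NR) were grouped by their titles. Per the labels' protocols, libraries were poly(A)-selected with a directional kit. The sources used here do not state whether strand was used in counting. The submitters' processing notes list edgeR, RSEM, STAR, cutadapt and FastQC, and name both GRCm39 and mm10 as builds. Expected counts and TPM are deposited columns, named by their headers. RSEM shares ambiguous reads between genes in its expected counts, and its TPM divide those counts by effective length. A deposited length is the mean of a gene's isoform lengths, each weighted by its estimated share.

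The 35 genes and the other lists were chosen with earlier results of these data known, so no list was tested as a whole. Expected counts were rounded and filtered with filterByExpr (minimum count 10, minimum total 15), scaled by TMM and fitted for all 11 libraries at once in edgeR 4.0.16 (R 4.3.3, 8 residual degrees of freedom, quasi-likelihood test). P-values were adjusted by Benjamini-Hochberg over 14556 genes at a threshold of 0.05. CPM are TMM-scaled. Log2 weighted lengths of 12231 genes were tested with limma 3.58.1. In the length-trend alternative, a smooth trend of log2 CPM on log2 length was removed per library by offsets. Counts within 1e-09 of a whole number were called whole. Promoter sequences came from RefSeq (GRCm38.p6) and were searched over 250 bases. No coordinates of genes are given, because the builds differ.

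Genes were named if called, if among the 3 highest or 3 lowest per comparison, the 5 most abundant in NR, or the 3 longest or shortest. From other lists, called genes were named, at most 6 per list. Myh6 and Myh7, of the first of those lists, and the gene pairs of the closing section were added after their values were seen. The fits were checked on simulated counts. Deviations of same-numbered S-PRT and NR libraries correlated at 0.113 to 0.219 in all 4 pairs. The 12 pairs with different numbers ranged between -0.28 and 0.3, some above the same-numbered ones, so the numbers are not shown to mark pairs. Same-numbered F-PRT libraries correlated at -0.209 to 0.159 with NR and at -0.255 to -0.149 with S-PRT. The main fits therefore used no pairs, and the replicate block, which takes the numbers of all 3 groups, was an alternative only. Alternatives were other size factors, filters, DESeq2 1.42.0, limma on log2(TPM + 1) and log2(TPM + 0.1), fewer groups, replicate number as a block, the length trend, 1 surrogate variable (sva 3.50.0), removal of mitochondrial genes, and leaving out each library. Intervals and errors cover the spread between libraries only. No pair of libraries of a group agreed within counting noise.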

Additional observations from a re-analysis of the deposited data

Results flagged for a closer look

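Within NR and S-PRT, the groups with 4 libraries, 82 values were examined for a library far from the other 3, and 3 stood out, where chance alone marks about 1 in 20. Pdlim5, the PDZ-LIM protein of the Z-disc, was at 423.5 CPM in S-PRT 4, against 489.3 to 497.6 CPM in the other S-PRT libraries. Pdlim3, its relative, was at 5.749 CPM in NR 1, against 4.41 to 4.56 CPM in the other NR libraries. Synpo2l, the actin-binding protein, was at 149.3 CPM in NR 2, against 110.9 to 115.0 CPM in the others. No explanation was tested.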

How the results depend on the processing

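S-PRT against NR gave 188 called genes over the transcriptome, and 14 with library size only, 605 without a count filter, 697 with DESeq2's test, 2 and 3 with limma on log2(TPM + 1) and log2(TPM + 0.1), 557 with only the groups compared, 716 with 1 surrogate variable, and 26 to 444 on leaving out a library. Of the 35 genes, DESeq2's test called 1 higher. Their median (0.02) was -0.127 with library size only and -0.212 in both TPM fits. F-PRT against NR gave 2841 genes, and 134 with library size only, 71 and 74 in the TPM fits, and 1382 to 3784 on leaving out a library. The count of higher sarcomere genes (6) was 0 with library size only and in both TPM fits, and 4 to 7 on leaving out a library. The count of lower ones (2) was 1 with library size only or without mitochondrial genes, and 0 in both TPM fits and with only the groups compared. It was 4 with DESeq2's test, 6 with the surrogate variable and 0 to 3 on leaving out a library. Over all alternatives, 39 to 4159 of all genes were called. Counts of sarcomere genes with no count of all genes beside them are not read as results about the set. The median of the 35 genes (-0.04) was 0.052 in both TPM fits and -0.097 to 0.086 on leaving out a library. F-PRT against S-PRT gave 0 genes, and 3 with DESeq2 size factors or without mitochondrial genes, 71 without a count filter, 168 with DESeq2's test, 9 and 4 in the TPM fits and 0 to 103 on leaving out a library. DESeq2's test called 2 of the 35 genes higher, and their median (0.04) was 0.249 with library size only and 0.276 in both TPM fits. Fhod3 in F-PRT against NR turned to 0.008 in both TPM fits. Library size only moved the median of all genes to 0.072 for F-PRT and -0.136 for S-PRT, both against NR, while that of F-PRT against S-PRT was 0.188. Except where a fit by its construction used fewer libraries, the cause was not tested.

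With the length trend removed, 43 genes were called in S-PRT against NR and 532 in F-PRT against NR, with 1 sarcomere gene higher and 0 lower. The median of the long minus that of the short sarcomere genes turned to 0.151 in S-PRT against NR (-0.09 before) and 0.129 in F-PRT against NR (-0.58 before, -0.803 to -0.275 on leaving out a library), and was -0.26 in F-PRT against S-PRT (-0.65 before, -0.8 to -0.299 on leaving out a library). In F-PRT against NR, 14 of the 35 genes changed sign. Ttn turned to 0.154, Myl2 to -0.068, Tnnt2 to -0.045, Cryab to -0.049 and Flnc to 0.187 (-0.379 to 0.102 on leaving out a library, positive only without F-PRT 4), and Tnni3, Smpx, Myoz2, Pdlim3 and Trim63 turned negative and Mybpc3, Myom1, Myom2 and Unc45b positive.

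With replicate number as a block, 60 genes were called in S-PRT against NR, and 1501 in F-PRT against NR with 0 sarcomere genes lower and 0 changed in weighted length (1 before, 0 with only the groups compared, 0 to 6 on leaving out a library). The block together with the length trend removed gave 9 genes in S-PRT against NR and 39 in F-PRT against NR, with 0 sarcomere genes higher and 0 lower. Long minus short was then 0.155 for S-PRT and 0.091 for F-PRT, both against NR, while in F-PRT against S-PRT it was -0.292. In F-PRT against NR, 12 of the 35 genes changed sign, with Ttn at 0.17, Myl2 -0.065, Tnnt2 -0.029, Cryab -0.062 and Flnc 0.136. The block changed no other call of the 35 genes beyond those named beside the results.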

Other observations

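Ratios of TPM within a library need no scaling between libraries, but the length trend is not removed from them. The transcripts of a pair differ in length, with means of 719 bases for Tnnc1 and 1068 for Tnnt2, and 1434 for Trim54 and 2560 for Trim55. Troponin C over troponin T (Tnnc1 over Tnnt2) was 0.475 to 0.626 in F-PRT, 0.511 to 0.572 in S-PRT and 0.417 to 0.464 in NR, so both irradiated groups lay above NR without overlap. Tnnc1 over Tnni3 was 0.639 to 1.03 in F-PRT, 0.844 to 0.935 in S-PRT and 0.694 to 0.786 in NR, where F-PRT overlapped NR and S-PRT did not. Telethonin over titin (Tcap over Ttn), a pair that binds at the Z-disc, was 87.8 to 154.9 in F-PRT, 48.9 to 55.9 in S-PRT and 52.0 to 75.3 in NR. F-PRT stood above both other groups for that pair, one of a short and a very long transcript. Trim54 over Trim55 was 7.28 to 13.6 in F-PRT, 6.81 to 8.90 in S-PRT and 6.34 to 6.98 in NR. The light chains Myl2 over Myl3 were at 1.46 to 1.66 in F-PRT, 1.63 to 1.71 in S-PRT and 1.62 to 1.78 in NR. The groups overlapped for Tnni3 over Tnnt2, Trim63 over Trim55 and Myom1 over Myom2. All these ratios are values with no test.

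For genes whose weighted length was lower in F-PRT, differences in CPM and in TPM were not alike. Fhod3 averaged 175 ± 62.9 CPM in F-PRT and 252 ± 33.4 CPM in NR, but 97.1 ± 6.71 TPM in F-PRT and 97.2 ± 14.0 TPM in NR, with a mean effective length of 1652 ± 358 bases in F-PRT and 2430.1 ± 156 bases in NR. Myom1 averaged 1105 ± 249.7 CPM in F-PRT and 1176 ± 127 CPM in NR, but 487 ± 148 TPM in F-PRT and 293 ± 44.5 TPM in NR. TPM divides counts by effective length, so these TPM depend on the estimated isoform mix as well as on the counts. They are not scaled between libraries. Neither weighted length passed in limma (adjusted p = 0.0629 for Fhod3 and 0.0691 for Myom1). F-PRT 4 had the lowest effective length of both, 1240 bases for Fhod3 and 1422 bases for Myom1. What set CPM and TPM apart was not tested.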
